A study of Mus musculus with 6 samples.

Results

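Axon guidance genes were examined in the hippocampus of mice that lack the NF-κB inhibitor IκBα in the brain. The set held 68 of the 18193 genes with a named probe set, taken by symbol: semaphorins of classes 3 to 7, plexins, ephrins, Eph receptors, Slits, Robos, netrins, netrin-G proteins and Unc5 receptors. Of these, 67 encode guidance proteins, and the remaining one, Plxna4os1, is an antisense RNA of the Plxna4 locus that shares the prefix. Each gene was read by its brightest probe set, the one with the highest mean over the 6 arrays, deficient arrays included. Choosing it over the 3 control arrays alone gave another probe set for 1 guidance gene, Sema3b (beside 0.671% of all genes). Total RNA came from hippocampi of 3 IκBα-deficient animals (IκBαfl/-;Nestin-Cre) and 3 littermate controls (IκBαfl/-), all aged 2 to 3 months, with 1 array per animal. The Nestin promoter drives Cre in the neural lineage, so the floxed allele is lost in neurons, astrocytes and oligodendrocytes, while microglia and vessels arise elsewhere. All 6 animals carry 1 null allele, and the labels give the controls no Cre, so an effect of Cre itself and of the deletion cannot be told apart.

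Guidance cues steer growing axons by attraction or repulsion, and in the adult hippocampus the same proteins act on dendritic spines, synapse number, mossy fibre pruning and blood vessels. Semaphorins signal through plexins, with neuropilins as co-receptors for the secreted class 3. Ephrins on one cell bind Eph receptor tyrosine kinases on the next and signal in both directions. Slits repel through Robo receptors, and netrin attracts through Dcc and repels through Unc5 receptors.

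The deletion showed in Nfkbia itself, which encodes IκBα: its brightest probe set was at 10.39, 10.35 and 10.31 on the control arrays and at 9.06, 9.13 and 8.66 on the deficient arrays. Values are RMA log2 levels, where RMA corrects background, equalizes the distributions of the arrays and summarises the probes. Array medians lay between 6.08 and 6.13 and correlations between arrays between 0.992 and 0.998. The markers of hippocampal neurons averaged 9.21 to 9.44 on the 6 arrays. Deficient array 2 stood apart in RNA quality: control probe sets at the 3′ ends exceeded those at the 5′ ends by 2.02 there and by 0.56 to 0.73 on the other arrays. Markers of neighbouring tissue moved with the genotype, so fits below with such a list as a covariate cannot cleanly tell tissue from genotype. All 12 choroid plexus markers had higher group means in deficient animals, 2 of them without overlap of the arrays. The list means were 5.70 to 7.74 in controls and 7.60 to 8.52 in deficient animals, with control 1 at 7.74. All 12 meninges markers also had higher group means in deficient animals, 3 of them without overlap. The meninges list was at 7.61, 7.79 and 7.14 in controls and at 7.70, 8.76 and 7.69 in deficient animals, so deficient arrays 1 and 3 lay within the control range and array 2 above it.

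None of the 68 genes passed an adjusted p of 0.05 in either direction (limma, Benjamini-Hochberg over all genes), and over all genes the share called was 0% higher and 0% lower. Before adjustment, 3 genes had p under 0.05, beside 4.71% of all genes: 2 were higher (beside 3.33%) and 1 was lower (beside 1.39%). A test without moderation gave 3 higher and 0 lower genes, with 0 after adjustment. Its share over all genes is not given, so that count is not set against a background. The arrays of the 2 groups did not overlap for 6 genes, all higher in deficient animals (8.82% of the set, beside 5.94% of all genes), and for 0 lower ones (beside 3.82%). In either direction the share over all genes was 9.76%. With probe sets chosen on the controls, 1 higher and 1 lower gene had an unadjusted p under 0.05 (1.47% each, beside 3.28% and 1.43% of all genes). In that setting 5 genes were separated, all higher (7.35% of the set, beside 5.88% of all genes). The median difference was 0.011 over the set and 0.0058 over all genes, and 38 genes were higher and 30 lower. The median size of a difference, sign aside, was 0.059 in the set and 0.061 over all genes. In these counts and medians the guidance genes lay near the background of the whole array. Beyond an absolute difference of 0.20 stood 4 guidance genes, Sema3b, Epha6, Ephb4 and Sema3d (5.88% of the set, beside 7.14% of all genes). Bulk tissue cannot tell fewer cells of a type from less RNA per cell.

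**Figure D1:**
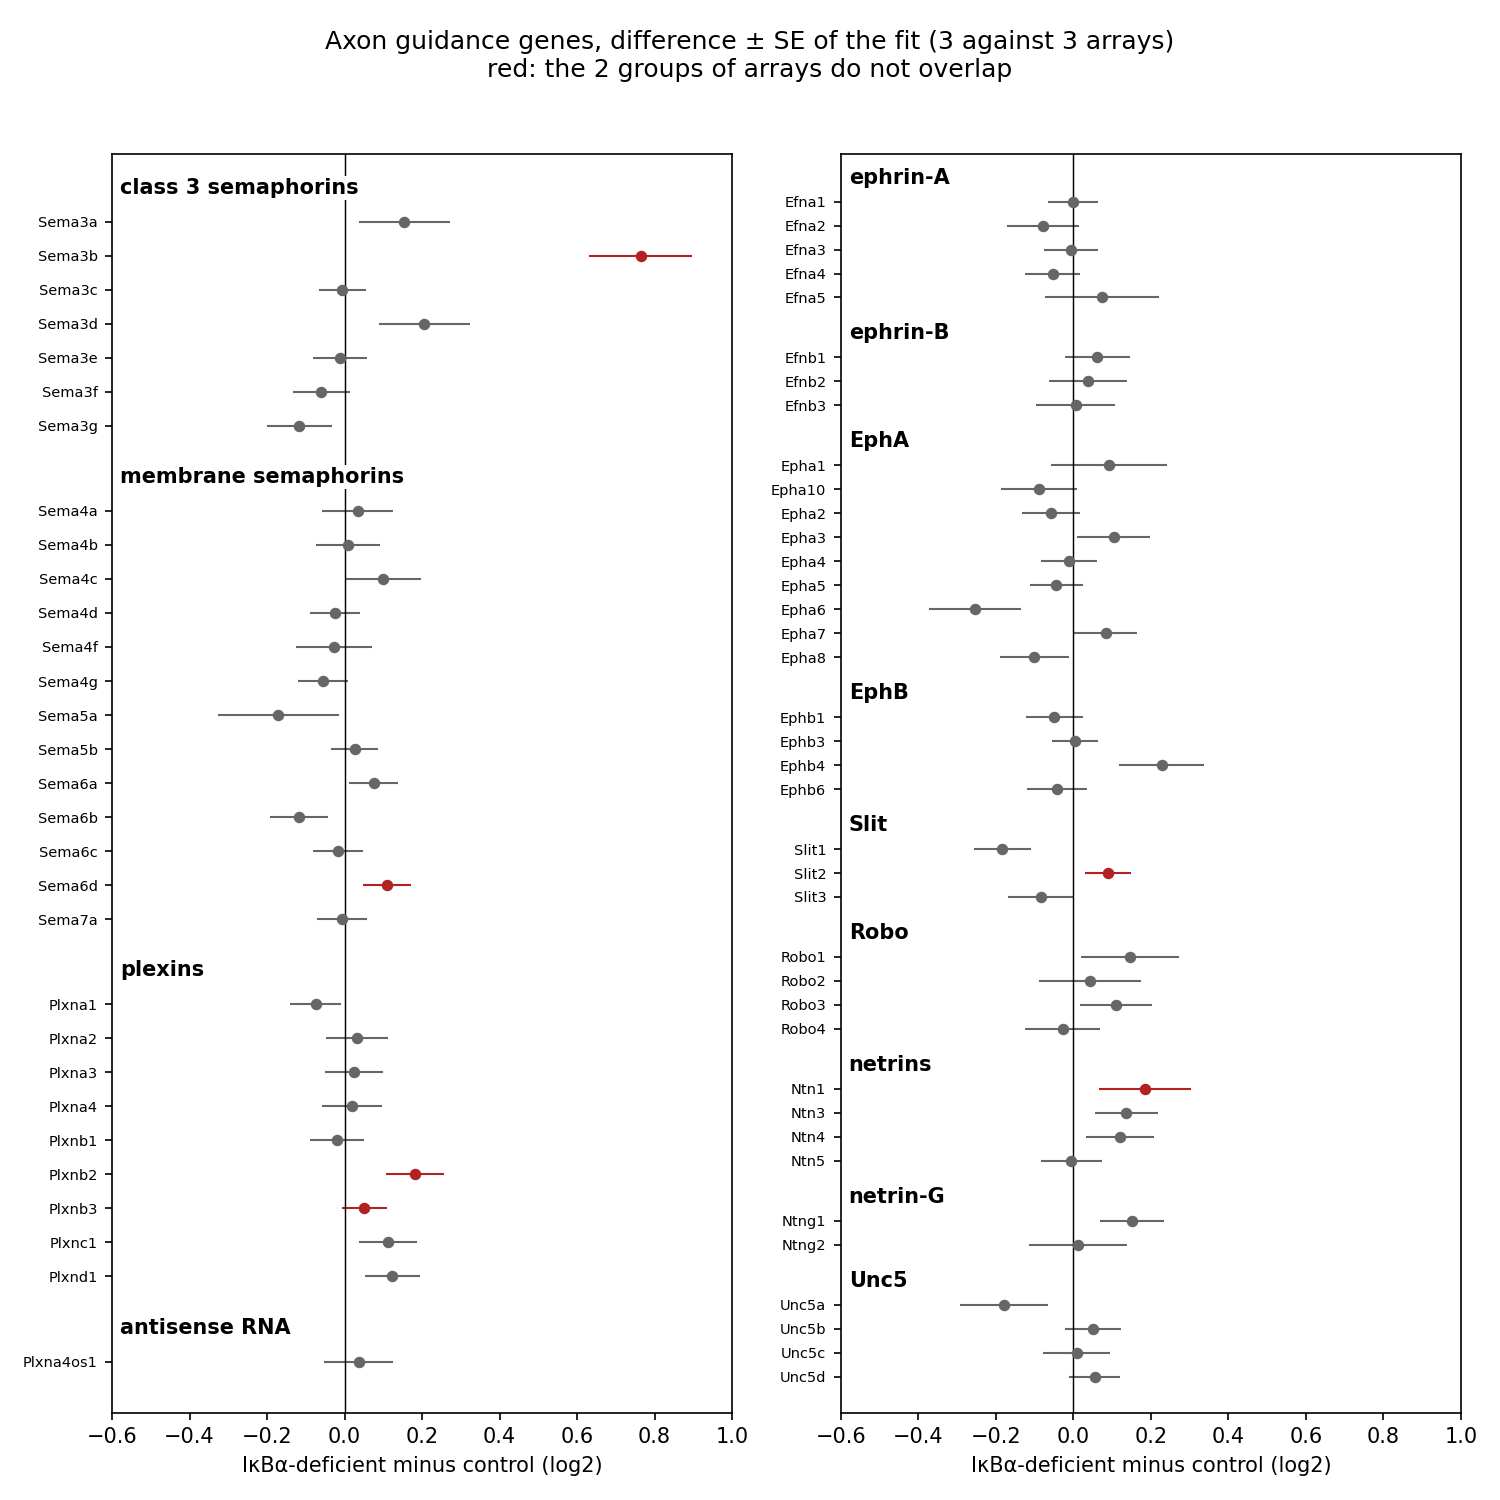
Difference between 3 IκBα-deficient and 3 control arrays (log2, x axis) for each of the 68 genes by family, with bars for the standard error of the fit. Sema3b lies at 0.76 on 1448415_a_at (-0.12 on the probe set brightest in controls) and the other genes between -0.25 and 0.23; red points mark the 6 genes whose arrays do not overlap between groups.

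Among the secreted class 3 semaphorins, Sema3b, a repellent that binds neuropilins, gave opposite directions on different probe sets. On 1448415_a_at, the brightest over the 6 arrays, it was at 5.64, 5.29 and 5.27 on the control arrays and at 6.40, 6.08 and 6.01 on the deficient arrays. Every deficient array lay above every control. The difference was 0.76 ± 0.13 (SE) on the log2 scale, 1.70-fold, with an unadjusted p of 0.000476 and an adjusted p of 0.658 (limma). The high deficient arrays helped to choose this probe set, so the p is not independent of the choice. In controls its mean was 5.40 ± 0.21 (SD, n = 3), below the 5.48 of 1416644_a_at, which differed by -0.12 (unadjusted p = 0.338, adjusted p = 0.964, limma) with overlapping groups. All 3 Sema3b probe sets had control means below the array medians, where RMA compresses differences.

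Within each group, 1448415_a_at had the same order over the arrays as the choroid plexus list. Control 1 had the highest Sema3b among controls and, at 7.74, the highest list mean among them, while controls 2 and 3 had list means of 5.76 and 5.70. Among deficient animals, array 1 had the highest Sema3b and the highest list mean, 8.52, followed by array 2 at 7.95 and array 3 at 7.60. With the list mean as a covariate the Sema3b difference was 0.42 ± 0.12 (SE). With the meninges list as covariate it was 0.79. The choroid plexus list mean itself differed between the groups, so its part cannot be cleanly told from that of genotype. The part of neighbouring tissue in the Sema3b difference was not tested. The other 2 Sema3b probe sets did not show the difference. Probe set 1431795_a_at was at 4.69, 4.78 and 4.79 in controls and 4.77, 5.18 and 4.81 in deficient animals, and 1416644_a_at at 5.40, 5.47 and 5.57 against 5.62, 5.30 and 5.14. The mean of the 3 probe sets differed by 0.27. Which transcripts each of them reads was not tested.

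**Figure D2:**
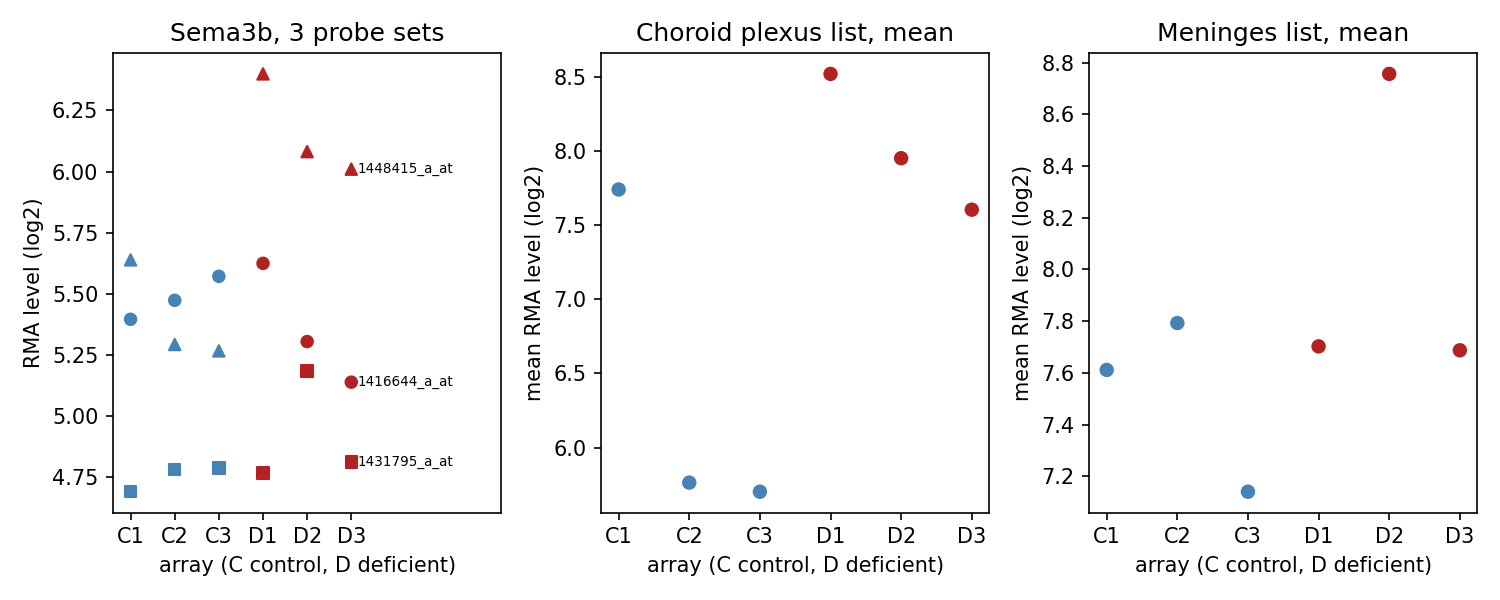
Left, RMA level (log2) of the 3 Sema3b probe sets on each array; middle and right, the mean level of the choroid plexus and meninges marker lists (12 genes each), with controls C1 to C3 in blue and deficient animals D1 to D3 in red. Only 1448415_a_at separates the groups, and C1, at 7.74 on the choroid plexus list, lies above D3 at 7.60.

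The 6 other class 3 genes did not separate. Sema3d was at 6.90, 7.06 and 7.05 in controls and 7.04, 7.48 and 7.11 in deficient animals, so the difference of 0.21 ± 0.12 (SE) came mostly from deficient array 2 and was 0.07 without it. Sema3a, the prototype repellent that acts through neuropilin-1 and class A plexins, was likewise high on deficient array 2, at 7.90 beside 7.58 and 7.42, with controls from 7.41 to 7.53. Sema3g differed by -0.12 and Sema3f, which acts through neuropilin-2 and helps prune mossy fibres, by -0.06. Sema3e, a ligand that can bind plexin D1 without a neuropilin, and Sema3c were level on their brightest probe sets. Each differed by -0.01, with 95% intervals within -0.17 to 0.15. The 3 other Sema3e probe sets differed by -0.07, -0.22 and -0.13, all with overlapping groups. The co-receptors were also near level: Nrp2 differed by 0.04 ± 0.07 (SE), and Nrp1 by 0.10 ± 0.08.

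Of the 13 membrane semaphorins 6 were higher and 7 lower, with 0 called. Sema6d, a transmembrane ligand of class A plexins, was at 11.38, 11.27 and 11.34 in controls and at 11.45, 11.46 and 11.41 in deficient animals. The groups did not overlap, but the difference was 0.11 ± 0.06 (SE, limma adjusted p = 0.963). It was 0.05 with the choroid plexus covariate and 0.01 with the mean of its 4 probe sets, of which 2 of the 3 others had the opposite sign. Sema6b differed by -0.12 ± 0.08, with controls at 7.92, 8.05 and 7.97 and deficient arrays at 7.93, 7.75 and 7.91. Sema5a, which limits excitatory synapses on granule cells, was at 8.26 on deficient array 2 beside 8.79 and 8.81, and at 8.62 to 8.96 in controls. The remaining 10 genes lay between -0.06 (Sema4g) and 0.10 (Sema4c), among them Sema7a, a lipid-anchored ligand of plexin C1, at -0.01 and Sema4d, a ligand of plexin B1, at -0.03.

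Plexins, the semaphorin receptors, were higher in 7 of 9 genes, with a median difference of 0.03. Plxnb2, a receptor of class 4 semaphorins found in neural progenitors, was at 8.73, 8.73 and 8.62 in controls and at 8.76, 8.95 and 8.91 in deficient animals. The groups did not overlap, although the gap between the highest control and the lowest deficient array was narrow. The difference was 0.18 ± 0.07 (SE), with an unadjusted p of 0.0405 and an adjusted p of 0.963 (limma), and it was 0.12 with the meninges covariate. Plxnb3, the receptor of Sema5a, was also separated, by a smaller 0.05 ± 0.06, at 8.79, 8.82 and 8.75 against 8.86, 8.83 and 8.84. Its ligand Sema5a was at -0.17. Plxnd1, a receptor in vessel walls and neurons, overlapped at 7.85, 7.86 and 7.76 against 7.84, 7.99 and 8.00. The 4 class A plexins, which pass on class 3 and class 6 signals, lay between -0.07 and 0.03. The antisense RNA Plxna4os1 was dim, with a control mean of 4.30 and a difference of 0.04, and Plxna4 differed by 0.02.

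**Figure D3:**
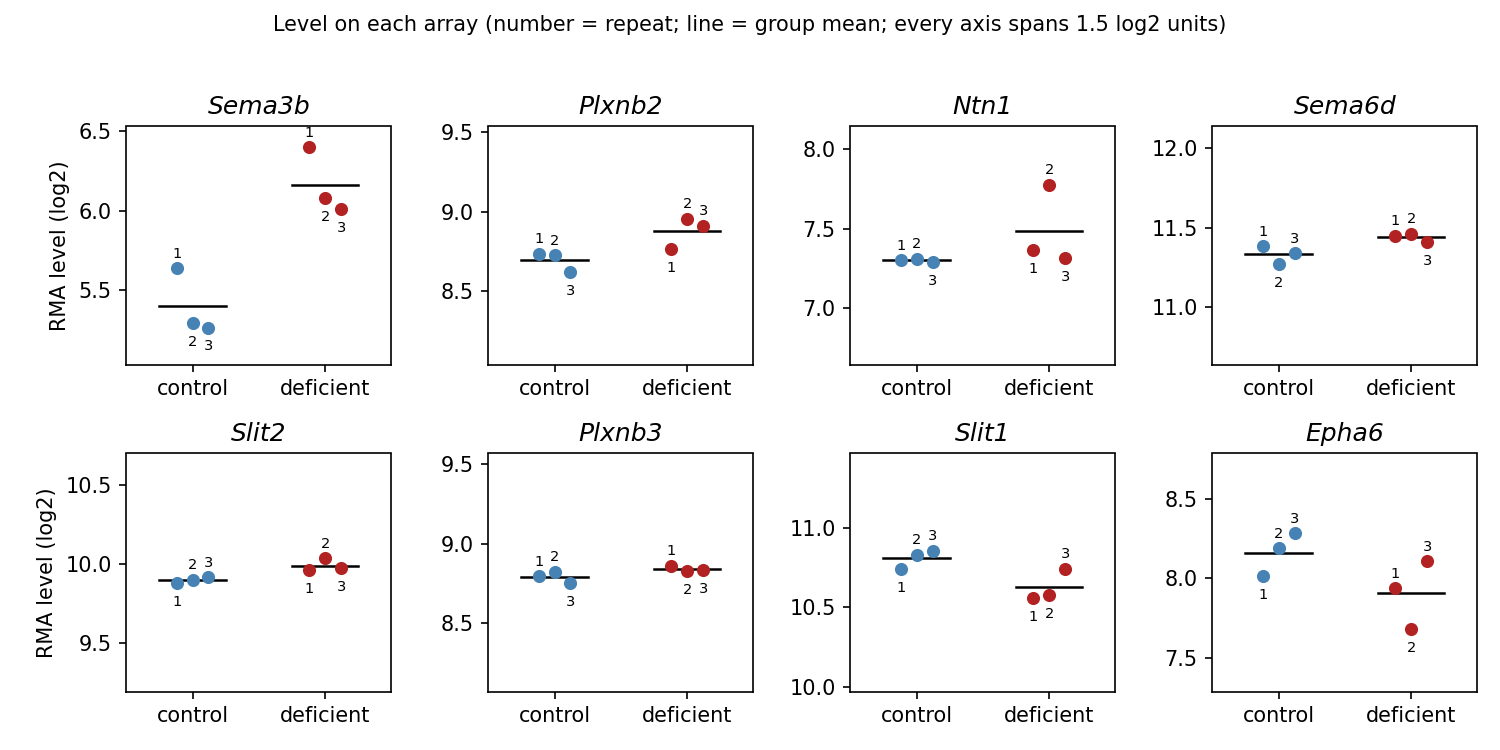
RMA level (log2) on each of the 6 arrays for the 6 genes whose groups do not overlap, Slit1 and Epha6; numbers give the repeat and lines the group means. Every axis spans the same log2 range, so the wide step of Sema3b on 1448415_a_at can be set beside the 0.05 of Plxnb3.

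Ephrins are the membrane ligands of Eph receptors. The 5 lipid-anchored ephrin-A genes differed by -0.08 to 0.07, and the 3 transmembrane ephrin-B genes by 0.01 to 0.06. The widest ephrin-A difference was Efna2 at -0.08, with controls at 7.81, 8.04 and 8.04 and deficient arrays at 7.77, 7.87 and 8.02, and its sign turned with the choroid plexus covariate (0.14). Efna4, at 5.49, 5.42 and 5.50 against 5.30, 5.48 and 5.46, differed by -0.05, and by 0.003 without deficient array 1. Efna3, which astrocytes present to EphA4 on dendritic spines, differed by -0.01 with a 95% interval of -0.17 to 0.16. Efna5 varied most among controls, with control 1 at 8.35 beside 7.73 and 7.87, while the deficient arrays lay at 8.00 to 8.08. Efnb1 differed by 0.06 and Efnb2 by 0.04, and both turned negative with either tissue covariate. Efnb2 was at 10.17, 10.17 and 9.91 against 10.06, 10.27 and 10.02, and its 3 other probe sets had the opposite sign.

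Eph receptors likewise gave 0 calls and 0 separated genes. Among 9 EphA genes 3 were higher and 6 lower. Epha6 had the widest of these differences, at 8.01, 8.19 and 8.29 in controls and 7.94, 7.68 and 8.11 in deficient animals. Deficient array 3 lay above control 1, so the groups overlapped. The difference was -0.25 ± 0.12 (SE), with an adjusted p of 0.963 (limma), and it was -0.14 without deficient array 2, -0.07 with the choroid plexus covariate and -0.09 with the meninges covariate. Epha8 was at 6.26, 6.27 and 6.33 in controls and 6.11, 6.37 and 6.07 in deficient animals, where array 2 lay above all controls and the others below them. It differed by -0.10 ± 0.09 (SE), by -0.19 without deficient array 2 and by -0.04 without deficient array 3. Epha4, the receptor that shapes spines of pyramidal neurons, was at 11.03, 11.25 and 11.13 against 11.14, 11.10 and 11.14. On this probe set the difference was -0.01 with a 95% interval of -0.18 to 0.16. Of its 4 other probe sets 3 had the opposite sign. They included 1439757_s_at at 0.23, while 1421928_at differed by -0.45, with deficient array 2 at 8.20 beside 9.52 and 9.52. Epha7 differed by 0.08 and Epha5 by -0.04, and for each of them 2 of the 3 other probe sets had the opposite sign. Epha1 was high on deficient array 1, at 5.76, with the other 5 arrays at 5.17 to 5.35.

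Of the 4 EphB genes, Ephb4, the vascular receptor of ephrin-B2, differed most. It was at 6.18, 6.16 and 5.83 in controls and 6.34, 6.35 and 6.16 in deficient animals, a difference of 0.23 ± 0.11 (SE) that was 0.11 without control 3. Ephb4 was dim, with a control mean of 6.06, below the lowest array median of 6.08, where differences are compressed. It kept its sign in all 17 alternatives that could be computed for it, which all reuse these arrays. Its ligand Efnb2 differed by 0.04. Pericyte markers were higher in 6 of 6 genes, with list means of 8.29 to 8.42 in controls and 8.50 to 8.79 in deficient animals, and endothelial markers in 4 of 7, at 8.03 to 8.18 and 8.05 to 8.19. Their part in the Ephb4 difference was not tested. Ephb1 differed by -0.05, and by 0.01 without deficient array 3, the kinase-inactive Ephb6 by -0.04 and Ephb3 by 0.004.

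The 3 Slits, secreted repellents, went in different directions. Slit1 was at 10.74, 10.83 and 10.86 in controls and at 10.56, 10.58 and 10.74 in deficient animals. The groups met at 1 point, where deficient array 3 (10.744) and control 1 (10.743) were level. The difference was -0.18 ± 0.07 (SE), the one lower gene with an unadjusted p under 0.05 (0.0393, adjusted p = 0.963, limma). Its second probe set, 1425277_at, was at 9.27, 9.23 and 9.29 against 9.14, 9.14 and 9.28, the same direction with overlapping groups. With the choroid plexus covariate, which itself differed with genotype, the Slit1 difference was -0.07. The hippocampal neuron markers were lower in 8 of 10 genes, with list means of 9.27 to 9.44 in controls and 9.21 to 9.31 in deficient animals; their part in the Slit1 difference was not tested.

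Slit2 was at 9.88, 9.90 and 9.92 in controls and at 9.96, 10.04 and 9.97 in deficient animals, so the groups did not overlap. The difference was small, 0.09 ± 0.06 (SE, adjusted p = 0.963, limma), and the controls lay close together, with an SD of 0.02. Slit3 differed by -0.08. Their receptor Robo1 was at 8.90, 9.34 and 9.37 against 9.39, 9.39 and 9.27. Its difference of 0.15 ± 0.13 rested on the low control 1, was -0.01 without that array and was -0.04 with the mean of its 3 probe sets. Robo3, which modulates Slit responses at the midline, was dim, at 5.50, 5.41 and 5.31 against 5.42, 5.44 and 5.70. Robo2 differed by 0.04 on a dim probe set and Robo4, found in endothelium, by -0.03.

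Netrin genes were higher in 3 of 4 cases, with a median of 0.13. Ntn1, the diffusible cue that attracts through Dcc, was at 7.30, 7.31 and 7.29 in controls and at 7.36, 7.78 and 7.32 in deficient animals. The groups did not overlap, but deficient arrays 1 and 3 lay close to the controls and the difference of 0.18 ± 0.12 (SE, adjusted p = 0.963, limma) came from array 2. It was 0.04 without that array, 0.04 with the 3′ to 5′ gap as a covariate and 0.01 with the meninges covariate. The second Ntn1 probe set was dim and of the other sign (-0.36), and the mean of both was -0.09. Ntn3 differed by 0.14 ± 0.08 on a dim probe set, at 4.57, 4.43 and 4.56 against 4.52, 4.69 and 4.76. Ntn4, a laminin-related netrin of basement membranes, was at 7.84, 7.90 and 7.73 against 7.93, 8.09 and 7.81.

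The lipid-anchored netrin-G1, encoded by Ntng1, marks axon terminals and binds the partner encoded by Lrrc4c on dendrites. Ntng1 was at 9.65, 9.45 and 9.43 in controls and 9.60, 9.63 and 9.76 in deficient animals. Control 1 lay above 2 of the deficient arrays, and the difference was 0.15 ± 0.08 (SE). It was -0.002 with the mean of all 4 probe sets. Ntng2 differed by 0.01, with control 3 at 6.14 beside 6.60 and 6.63, and was -0.15 without that array. Lrrc4c differed by 0.07 and Lrrc4, the partner of netrin-G2, by -0.02. The thalamus markers, genes of a region next to the hippocampus, were higher in 8 of 8 cases, with list means of 8.36 to 8.52 in controls and 8.52 to 8.88 in deficient animals; their part in the Ntng1 difference was not tested.

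Of the 4 Unc5 genes, which encode repulsive netrin receptors, 3 were higher and 1 lower. Unc5a was at 8.84, 8.97 and 8.74 in controls and 8.60, 8.50 and 8.91 in deficient animals. Deficient arrays 1 and 2 lay below all controls and array 3 above controls 1 and 3, for a difference of -0.18 ± 0.11 (SE) that was -0.10 without deficient array 2 and -0.30 without deficient array 3. Unc5d was at 8.90, 8.83 and 8.76 against 8.85, 8.89 and 8.92, a difference of 0.05. Unc5b differed by 0.05 and Unc5c by 0.01. A second, dimmer Unc5b probe set, 1453269_at, was at 7.23, 7.21 and 7.26 in controls and 7.66, 7.42 and 7.31 in deficient animals, without overlap. The attractive receptor Dcc differed by 0.10 ± 0.09.

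Other genes of the pathway were taken from 3 lists of co-receptors, signalling effectors and further cues. Of 69 measured genes 40 were higher and 29 lower, 2 higher (2.9%, beside 3.33% of all genes) and 0 lower (beside 1.39%) had an unadjusted p under 0.05 (limma), and 0 passed after adjustment. Without moderation 5 had an unadjusted p under 0.05, and with the choroid plexus covariate 0. The shares over all genes under these fits are not given, and those of the main fit do not apply to them. The groups did not overlap for 3 higher (4.35%, beside 5.94% of all genes) and 4 lower genes (5.80%, beside 3.82%). Among 41 effectors, Rras, a small GTPase that plexins switch off to release adhesion, was at 8.63, 8.51 and 8.49 in controls and 8.97, 8.75 and 9.05 in deficient animals, a difference of 0.38 ± 0.09 (SE, adjusted p = 0.963, limma). Fes, a tyrosine kinase that acts with class A plexins, differed by 0.16 ± 0.06, without overlap. The plexin-binding GTPase Rnd1 differed by 0.22 ± 0.11, with overlap. Among 19 further cues, Rtn4r, the receptor of the myelin inhibitor Nogo, was at 8.78, 8.72 and 8.70 in controls and 8.56, 8.66 and 8.57 in deficient animals, -0.14 ± 0.06 without overlap. Rgma, a repellent that binds neogenin, differed by 0.16 and Wnt5a by 0.28, both highest on deficient array 2, at 7.87 and 8.21. The 9 co-receptors were led by Nrp1, Dcc and L1cam (0.08), and none of the 9 was separated.

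The arrays contributed unequally. Deficient array 2 was the highest or lowest of the 6 for 34 of the 68 guidance genes, or 50%, and for 50.5% of all genes. It was the highest for 26 guidance genes (38.2%) and for 32.4% of all genes. Control array 1 was outermost least often, for 22.1% of the guidance genes and 23.5% of all genes. Within groups, the median SD of a guidance gene was 0.07 in controls and 0.10 in deficient animals, beside 0.08 and 0.10 over all genes. Without deficient array 2, 1 higher and 1 lower gene had an unadjusted p under 0.05 (1.47% each, beside 2.68% and 2.50% of all genes). In the same comparison 7 higher and 5 lower genes did not overlap (10.3% and 7.35%, beside 9.38% and 10.4% of all genes), where fewer arrays also make separation easier.

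**Figure D4:**
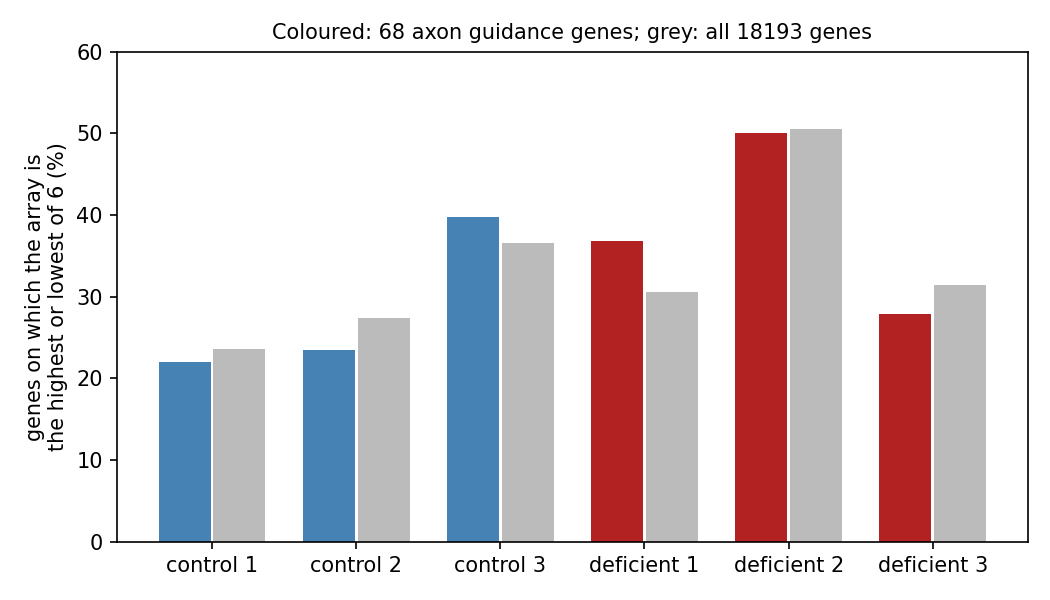
Share of genes (y axis, percent) for which each array was the highest or the lowest of the 6, for the 68 guidance genes (blue controls, red deficient) and for all 18193 genes (grey). Deficient array 2 reaches 50% of the guidance genes and 50.5% of all genes.

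Probe sets of one gene often differed. Of the 79 probe sets of guidance genes that were not used, 2 were separated higher (2.53%, beside 4.17% of all probe sets not used) and 0 lower (beside 3.83%). These were 1453269_at of Unc5b and 1450906_at of Plxnc1, the latter at 4.003, 3.894 and 3.781 against 4.26, 4.05 and 4.37, both named after their values were seen. Of the 44 guidance genes with more than 1 probe set, 21 had the same sign of difference in all of them. For the 5 separated genes with further probe sets, none of these was separated in the same direction, and Plxnb2 had only 1 probe set. For 9 genes the control mean lay below the lowest array median, where differences are compressed.

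Since IκBα restrains NF-κB, promoter windows were searched for the κB consensus, the 10-base sequence that NF-κB binds, on both strands. RefSeq windows (GRCm38.p6, 250 bases before to 50 after a gene's start) were held for 58 of the 68 genes. A match was found for 6 of them (10.3%), beside 5.14% of all 27025 genes of the table; by window it was 8.11% beside 4.51%. The windows of the guidance genes were richer in G and C, with a median of 64% beside 52.7%, and its part in the share was not tested. The 6 genes were Efna2, Ephb1, Sema4a, Sema4b, Sema4c and Sema6c, with differences of -0.08 to 0.10, and none was separated. Of the 6 separated genes, 4 had a window and 0 a match. The windows shown are Nfkbia itself as a known NF-κB target, Sema4c and Ephb1 as guidance genes with a match and Slit2 as a separated gene without one. Capitals mark the match, which begins 29 bases before the start in Nfkbia, 186 in Sema4c and 24 in Ephb1. The windows lie at chr12:55492598-55492897 (minus strand, Nfkbia), chr1:36558332-36558631 (minus, Sema4c), chr9:102354644-102354943 (minus, Ephb1) and chr5:47982905-47983204 (plus, Slit2).
Nfkbia: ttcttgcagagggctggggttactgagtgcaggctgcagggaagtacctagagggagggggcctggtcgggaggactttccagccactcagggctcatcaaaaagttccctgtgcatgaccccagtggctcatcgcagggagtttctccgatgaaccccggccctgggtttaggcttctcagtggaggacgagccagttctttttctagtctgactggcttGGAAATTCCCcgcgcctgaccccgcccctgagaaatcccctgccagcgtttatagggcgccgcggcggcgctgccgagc
Sema4c: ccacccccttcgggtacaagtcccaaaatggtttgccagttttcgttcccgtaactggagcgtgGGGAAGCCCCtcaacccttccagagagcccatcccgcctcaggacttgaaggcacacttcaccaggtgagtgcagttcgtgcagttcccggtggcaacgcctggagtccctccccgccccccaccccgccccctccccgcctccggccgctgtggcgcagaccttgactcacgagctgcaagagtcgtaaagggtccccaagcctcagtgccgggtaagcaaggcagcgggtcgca
Ephb1: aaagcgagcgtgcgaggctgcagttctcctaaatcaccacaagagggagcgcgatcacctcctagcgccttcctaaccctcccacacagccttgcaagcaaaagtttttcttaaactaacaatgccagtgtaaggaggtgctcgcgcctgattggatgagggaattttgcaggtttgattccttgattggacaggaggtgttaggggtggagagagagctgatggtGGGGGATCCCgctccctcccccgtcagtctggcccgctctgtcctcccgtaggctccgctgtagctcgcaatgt
Slit2: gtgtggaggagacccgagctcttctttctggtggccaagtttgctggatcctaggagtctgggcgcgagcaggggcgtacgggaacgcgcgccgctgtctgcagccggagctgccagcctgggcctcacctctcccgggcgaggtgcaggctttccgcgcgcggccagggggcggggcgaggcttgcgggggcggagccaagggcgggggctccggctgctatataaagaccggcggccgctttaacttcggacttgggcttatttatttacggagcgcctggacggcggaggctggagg
A match is a description of letters, not a bound site. Nfkbia differed by -1.40 on the log2 scale on its brightest probe set, but it is the deleted gene, so that value does not read out its promoter. Beside their windows, Sema4c was at 7.12, 6.97 and 6.92 in controls and 7.04, 7.29 and 6.98 in deficient animals, and Ephb1 at 9.02, 9.00 and 9.06 against 9.03, 9.05 and 8.85. Both guidance genes with a match overlapped between groups.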

How the data were processed

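Hippocampal RNA of 6 mice was measured on Affymetrix mouse expression arrays. The deposited values are on the log2 scale and were made by the authors with RMA, per the submitters' processing notes; its version and probe annotation are not stated in the labels. RMA compresses differences between low values and hides a change shared by most genes. Of 45101 probe sets, 64 control probe sets were left out, and 34945 had 1 symbol by the platform annotation of GEO, parts of which may be outdated. Genes were compared by a two-sided moderated fit (limma 3.58.1, R 4.3.3, functions lmFit and eBayes) with genotype as its single term. Benjamini-Hochberg adjustment ran over all 18193 genes, and the threshold was 0.05. Each difference is deficient minus control, with the standard error of the fit. The labels call the arrays biological repeats, numbered 1 to 3 in each group. No filter on dim genes was applied.

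The genes and lists were chosen with earlier results of these data known. Named are all members that did not overlap between groups or had an unadjusted p under 0.05, the 2 with the smallest p in each family and the 3 with the smallest p in each pathway list; further members are given as examples of the rest. Marker lists of endothelium, pericytes, astrocytes, oligodendrocytes, their precursors and microglia had mean differences of 0.01, 0.24, 0.09, 0.05, -0.03 and 0.003. Alternatives left out each array, added the repeat number, a tissue list or the 3′ to 5′ gap as a term, or changed normalization, filter, probe set choice or variance model; choosing probe sets on the controls was added after seeing the data. The fit was tested on simulated data with independent noise and planted differences wider than that of any guidance gene. That test does not cover differences of the size seen here. Arrays carry no read depth; their number, 3 per group, sets the precision. Figures were drawn with matplotlib 3.10.9.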

Additional observations from a re-analysis of the deposited data

How the results depend on the processing

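No guidance gene passed the adjusted threshold under any of the 20 alternatives, and 14 of 25 named genes kept their sign in all that could be computed for them. Sema3b could not be computed with dim genes or shared probe sets left out; with the probe set brightest in controls, an alternative chosen after seeing the data, it was -0.12, and elsewhere it kept its sign, at 0.27 to 0.88. Leaving out 1 array in turn gave 1 to 5 higher and 0 to 3 lower genes at an unadjusted p under 0.05, 6 to 14 separated higher and 1 to 7 separated lower genes, and 1 to 4 pathway genes. The shares over all genes in those runs were 2.34% to 4.98% and 0.951% to 2.50% at that p, and 9.38% to 14.4% and 6.66% to 10.4% separated. In the same runs Efna4 ranged from -0.085 to 0.0030, Efnb2 from -0.050 to 0.086, Ephb1 from -0.087 to 0.015, Ntng2 from -0.15 to 0.099 and Robo1 from -0.0073 to 0.23. The higher genes at an unadjusted p under 0.05 numbered 1 with the probe set brightest in controls, with dim genes left out, with shared probe sets left out, with array weights, with the meninges covariate and with the 3′ to 5′ covariate. The lower ones numbered 2 with quantile normalization again and with the robust trend, and 0 with the mean of all probe sets and without moderation. Quantile normalization again gave 1 separated lower gene. Pathway genes numbered 1 with quantile normalization again, median centring, shared probe sets left out or the robust trend, 5 without moderation and 0 with the choroid plexus covariate. Apart from the leave-one-out runs and the probe sets chosen on the controls, shares over all genes are not given for these settings. Their counts, and those of pathway genes in every alternative, are therefore not set against a background.

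Signs turned as follows, and the cause was not tested. The mean of all probe sets gave Ntn1 -0.086, Efnb2 -0.017, Ntng1 -0.0020, Ntng2 -0.0015 and Robo1 -0.035, and shared probe sets left out gave Efnb1 -0.00058. Array weights gave Efnb2 -0.029 and Ntng2 -0.041. The choroid plexus covariate gave Efna2 0.14, Efnb1 -0.032, Efnb2 -0.057, Ntng2 -0.14 and Unc5d -0.0027. The meninges covariate gave Efnb1 -0.033, Efnb2 -0.11 and Ntng2 -0.093, and the 3′ to 5′ covariate gave Efnb2 -0.046 and Ntng2 -0.0072.

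With the replicate block, the repeat number of the labels as a term, 2 lower and 2 higher genes had an unadjusted p under 0.05 (limma). After adjustment 0 passed. The share over all genes under this fit is not given, so these counts are not set against a background. In the same fit Sema3b had an adjusted p of 0.0843 (limma, range over all its alternatives 0.0843 to 0.99997). Same-numbered arrays correlated in their deviations from the group means by 0.06, 0.24 and 0.20. Arrays with different numbers correlated by -0.22, 0.14, 0.06, -0.27, -0.13 and -0.08. Deficient array 1 correlated better with control 3 (0.14) than with control 1 (0.06). The labels name biological repeats and no pairs, so the main fit did not take the numbers as pairs. These values do not settle whether the numbers mark pairs, which was not tested. Leaving out Plxna4os1, a choice made after seeing the data, changed no count of calls.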
